A study of Danio rerio with 16 samples.

Results

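The genes of the Notch pathway and the her, hes and hey genes were followed in whole, dechorionated zebrafish embryos after exposure to retinoic acid (RA) or to a receptor antagonist. Genes were taken by symbol from the annotation of the array: the Delta genes dla to dld, and symbols beginning with notch, jag, mib, nrarp, lfng, rbpj, numb, psen, adam10, aph1, ncstn, hes, hey, or her and a digit, without her5 and hey2. This gave 37 of 8793 named genes, each represented by its brightest probe set. Of the 37, 4 share only letters with the pathway: hesx1, a homeobox gene, jagn1b, a jagunal gene, and mibp and mibp2, integrin-binding protein genes. The other 33 are 7 ligand genes, 4 receptor genes, 7 genes of ligand and receptor processing, 2 nrarp genes and 13 her, hes and hey genes. Symbols beginning with rbpj, numb or ncstn named no probe set that carries 1 symbol. A further 3 probe sets carrying several symbols, the first of which matched, were not used. Later symbols of such probe sets were not checked.

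Wild-type embryos from an incross of AB/Wik hybrid parents were collected at 11 hours post fertilization (hpf), in 4 groups of 4 samples. The first group received all-trans RA, the vitamin A derivative that activates retinoic acid receptors, at 0.33 µM from 6.5 hpf. AGN193109, a synthetic antagonist of those receptors, was given at 10 µM or 1 µM from 5.25 hpf, and the controls received the solvent, 2% DMSO, from 5.25 hpf. RA exposure thus lasted 4.5 hours and the other exposures 5.75 hours, a difference that cannot be told apart from the compound in any comparison with RA. All compounds were diluted from stocks in DMSO, the embryos were bathed whole, and each sample is RNA of whole embryos. A final percentage of DMSO is listed for the controls only. The sample titles call the samples biological replicates; how many embryos each holds is not given in the labels. Titles also give the doses in µM, as used here, while the treatment protocol prints the same figures in mM, and they spell the antagonist AGN193019.

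Expression was measured on Affymetrix arrays, and levels are given as log2 of the deposited intensity. Array medians lay between 72.8 and 78.3 on the linear scale, and the number of arrays limits the precision. Across probe sets, replicates 1 and 4 of the antagonist at 1 µM correlated with arrays of other groups at a mean r of 0.967 and 0.966, against 0.978 for its replicates 2 and 3. DMSO replicate 3 had 0.968, against 0.979 for the other DMSO arrays. Of the RA response genes cyp26a1, dhrs3a and hoxb1a, all 3 were higher with RA than with DMSO, and dhrs3a and hoxb1a were lower at both antagonist doses. The degrading enzyme gene cyp26a1 averaged 13.97 ± 0.23 with RA, 9.53 ± 0.39 with 10 µM and 10.06 ± 0.70 with 1 µM antagonist and 10.50 ± 0.20 with DMSO (SD, n = 4 each), did not pass at either antagonist dose and overlapped with DMSO at 1 µM. Defining genes of paraxial mesoderm, neural plate, notochord and epidermis were detected in these embryos, with 7, 6, 3 and 5 genes above background.

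Notch is a receptor that is activated by Delta and Jagged proteins on a neighbouring cell. Cleavage frees its intracellular part, which enters the nucleus and, with the DNA-binding protein Rbpj, switches on some her, hes and hey genes. The products of this family are transcriptional repressors, and which of its genes depend on Notch, and in which direction, was not tested here. In the zebrafish embryo the Notch circuit takes part in the segmentation clock of the presomitic mesoderm, in which her1, her7 and dlc oscillate. It also limits how many cells of the neural plate become neurons.

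With RA, 5 of the 31 Notch genes that could be tested were lower than with DMSO and 0 were higher at an adjusted p under 0.05 (limma, two-sided, Benjamini-Hochberg over 11843 probe sets). The genes that fell were her3, her7, her15.2 and her6, all encoding repressors of the hairy/Enhancer of split family, and lfng, a glycosyltransferase that modifies Notch. No ligand or receptor gene passed. Among all probe sets 5.75% were called in this comparison, 3.18% higher and 2.57% lower, against 16.1% of the Notch genes. Each Notch gene counts through its brightest probe set, whereas the 11843 include further probe sets of a gene and unnamed ones. The 0 higher became 2 after quantile normalization (aph1b and dlb) and 4 with array weights, which also added dla and jag2b. The median log2 fold change was -0.156 over the Notch genes and 0.015 over all probe sets. At an unadjusted p under 0.05, 13 of the 31 passed, or 41.9%, against 13.2% of all probe sets. The RA and DMSO arrays did not overlap for 8 of the 31, or 25.8%, with 2 higher and 6 lower, against 10.1% of all probe sets (5.44% higher and 4.64% lower). With the symbols that share only letters, the count was 6 of 35, since hesx1 was also lower (adjusted p = 1.14e-05). The level of hesx1 was 3.50, 4.20, 3.33 and 4.1 with RA, against 6.54, 6.98, 5.83 and 6.40 with DMSO. As 2 RA arrays lay below the filter of log2 4, which the probe set passed through the other groups, no fold is given for it.

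The largest change was that of her3 (probe set Dr.20143.1.S1_at), which encodes a repressor of the proneural gene neurog1 in the zebrafish neural plate. Its log2 level was 5.63, 6.98, 6.31 and 6.02 in the RA arrays, 10.00, 9.53, 10.15 and 9.65 at 10 µM antagonist, 8.63, 9.79, 9.59 and 8.82 at 1 µM antagonist, and 9.33, 9.22, 8.39 and 9.16 in the DMSO arrays. Every RA array lay below every array of the other groups, and every array at 10 µM lay above every DMSO array. Relative to DMSO, her3 fell 6.91-fold with RA (log2 fold change -2.79 ± 0.30 SE, adjusted p = 4.79e-06). At 10 µM antagonist its difference from DMSO was 0.81 ± 0.30, with an adjusted p of 0.723. The second her3 probe set did not pass the filter on dim probe sets, with a mean log2 level of 2.58.

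The clock genes her1 and her7, which repress their own transcription in the presomitic mesoderm and are direct neighbours in the genome, gave different values. For her7 (Dr.3696.1.S1_at) the log2 level was 7.11, 7.54, 6.95 and 7.30 with RA, against 8.27, 8.12, 7.60 and 8.35 with DMSO. The groups did not overlap, although RA replicate 2 came within 0.1 of DMSO replicate 3, and her7 fell by 0.86 ± 0.20 (adjusted p = 0.0106). For her1 the level was 7.42, 7.52, 7.36 and 7.73 with RA, against 7.91, 7.57, 7.23 and 7.82 with DMSO. These groups overlapped, with a difference of -0.12 ± 0.15 (95% interval -0.44 to 0.20, adjusted p = 0.83). On the log2 scale, her7 minus her1 averaged -0.29 ± 0.21 with RA, 0.42 ± 0.18 at 10 µM antagonist, 0.23 ± 0.38 at 1 µM antagonist and 0.45 ± 0.10 with DMSO (SD, n = 4 each). All RA arrays lay below all DMSO arrays in this difference. The pair was chosen after its values were seen, and the difference was not tested. Replicate 3 was the lowest DMSO array for her1, her2, her3 and her7.

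The gene lfng (Dr.1831.1.S1_at), which encodes the Fringe enzyme that changes how Notch responds to its ligands, was among the least variable members. Its level was 10.57, 10.51, 10.68 and 10.38 with RA, against 11.04, 11.14, 11.38 and 10.92 with DMSO. It fell by 0.58 ± 0.12 (adjusted p = 0.00418), and the groups did not overlap. The calls of her3, her7 and lfng held without any single array (highest adjusted p 3.89e-05 for her3, 0.0454 for her7 and 0.0189 for lfng).

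For her15.2 (Dr.1899.1.S1_at), a gene of the Hes5 type, the level was 7.75, 7.26, 7.80 and 8.26 with RA, against 8.76, 8.30, 8.82 and 8.62 with DMSO. It fell by 0.86 ± 0.21 (adjusted p = 0.0159), with RA replicate 4 just under DMSO replicate 2. For her6 (Dr.431.1.S1_at), a Hes1-type gene that restrains neurogenesis, the level was 9.00, 9.38, 8.98 and 9.18 with RA, against 9.71, 10.05, 9.65 and 9.54 with DMSO. It fell by 0.60 ± 0.15 (adjusted p = 0.0227), again with no overlap. Both calls were lost without some single arrays. For her15.2 the adjusted p became 0.0567 and 0.0556 when DMSO array 1 or 3 was left out and 0.0573 when RA array 2 was. For her6 it became 0.0554 and 0.0900 with DMSO array 1 or 2 left out, and 0.0783 and 0.0825 with RA array 1 or 3 left out.

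**Figure D1:**
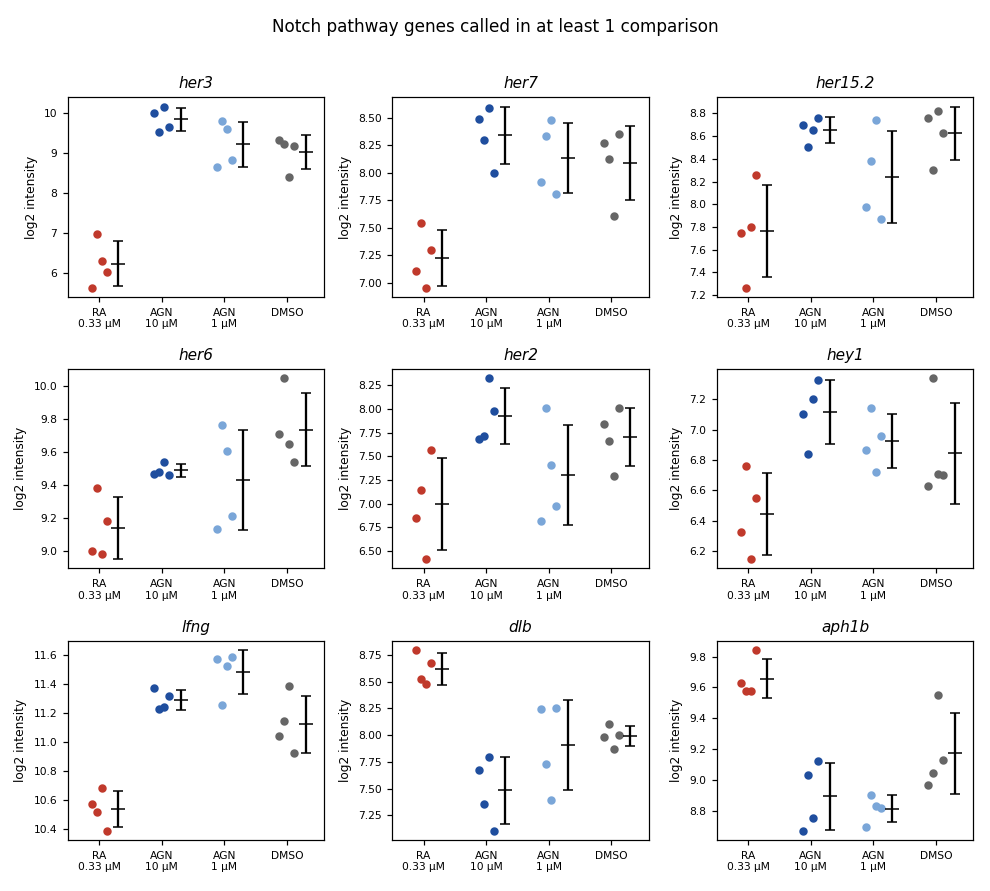
Log2 intensity of the 9 Notch pathway genes called in at least 1 comparison; each point is 1 array, the bar its group's mean with the SD (n = 4), and groups run from RA through antagonist at 10 µM and 1 µM to DMSO. RA arrays are the lowest for her3, her7 and lfng and the highest for dlb and aph1b, and levels of different genes are not comparable.

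The other tested her, hes and hey genes did not pass against DMSO, although with array weights her2 (-1.08, adjusted p = 0.00543) and her4.5 (-0.53, adjusted p = 0.0261) did. The difference was -0.71 ± 0.27 for her2 (adjusted p = 0.186), a Hes5-type gene that lies 1 gene away from her15.2, -0.40 ± 0.17 for hey1 (adjusted p = 0.311) and -0.27 ± 0.14 for hes6 (adjusted p = 0.421), whose product works with Her proteins in the zebrafish clock. The level of hes6 was 10.97, 11.20, 11.11 and 11.19 with RA, against 11.47, 11.29, 11.57 and 11.23 with DMSO, so the RA arrays were the lower ones without overlap. For her9, a Hes1-type gene, it was -0.28 ± 0.15 (adjusted p = 0.470), and for her8a 0.14 ± 0.26 (adjusted p = 0.902). The her4 copies, textbook Notch targets in the neural plate, gave -0.43 ± 0.20 for her4.2 and -0.29 ± 0.17 for her4.5 (adjusted p = 0.370 and 0.546). For her4.2 the level was 6.24, 5.72, 6.21 and 6.55 with RA, against 6.83, 6.08, 6.69 and 6.84 with DMSO, and the groups overlapped through DMSO replicate 2. The copies lie close together and are alike, so a probe set may bind RNA of more than 1 copy. In all, 11 of 12 tested her, hes and hey genes had a negative value, the 2 alike her4 copies among them, where 5547 of all 11843 probe sets did. The last gene of this family, heyl, stayed between 2.92 and 3.24 on all 16 arrays and was not tested.

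In RNA of whole embryos, fewer cells of a type and less RNA per cell cannot be told apart. Of the genes that mark the presomitic and paraxial mesoderm, 4 of 7 were lower with RA, where limma called 2.57% of all probe sets lower. The gene lists were chosen with earlier results of these data known, so such counts are no test of them. The log2 of their summed intensity was 10.81 to 11.31 with RA, against 12.38 to 12.75 with DMSO. Among them msgn1, a regulator of presomitic mesoderm, fell by 2.29 ± 0.15, and tbx16 by 1.25 ± 0.13, while tbx6 had 0.04 ± 0.15 (adjusted p = 0.954). With DMSO msgn1 alone averaged 11.83, so the sum leans on that gene. For the neural plate, where her3 is expressed, 3 of 6 marker genes were lower, with a summed level of 12.94 to 13.00 with RA, against 13.15 to 13.23 with DMSO. None of these markers was near background, with group means of at least 5.18 in both groups. Of the notochord genes 1 of 3 was lower, noto (-1.40 ± 0.21), with a summed level of 10.37 to 10.57 with RA, against 10.82 to 10.99 with DMSO. Of the epidermis genes 0 of 5 were called by limma and 1 had an unadjusted p under 0.05. Of the early neuron genes 1 of 3 was called lower. The others, neurog1 (0.76 ± 0.22, adjusted p = 0.061) and elavl3 (0.54 ± 0.25, adjusted p = 0.367), had positive values and were not called. The part of these cell types in the changes of her3, her7 and lfng was not tested.

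Of the ligand genes, 6 of 7 had a positive value with RA, where 6296 of all 11843 probe sets did. None passed, whereas with array weights dlb, dla and jag2b did (adjusted p = 0.0178, 0.0189 and 0.0215). The gene dlb (Dr.574.1.S1_at), a Delta gene of newly forming neurons, came nearest, with 8.80, 8.52, 8.48 and 8.67 with RA, 7.68, 7.36, 7.80 and 7.10 at 10 µM antagonist, 8.24, 7.73, 7.40 and 8.26 at 1 µM antagonist, and 7.98, 8.10, 7.87 and 8.0 with DMSO. All RA arrays lay above and all arrays at 10 µM below the DMSO arrays, while those at 1 µM spread around them. The differences from DMSO were 0.63 ± 0.19 with RA (adjusted p = 0.0603) and -0.50 ± 0.19 at 10 µM antagonist (adjusted p = 0.723). With RA, dlb also passed after quantile normalization (adjusted p = 0.0450) and when the 2 groups were fitted alone (0.0103).

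The related gene dla had 8.77, 8.08, 8.69 and 8.66 with RA, against 8.14, 8.29, 8.16 and 8.27 with DMSO. Replicate 2 fell below the DMSO arrays and the other RA arrays lay above them, so the groups overlapped (0.34 ± 0.14, adjusted p = 0.300); without RA replicate 2, dla passed with 0.49 (adjusted p = 0.0217). The clock ligand dlc (-0.09 ± 0.21) and its partner dld (0.09 ± 0.11) had adjusted p-values of 0.926 and 0.828. For dld, 1 of the steadiest members, the 95% interval of the difference was -0.15 to 0.34. The level of dlc was 8.10, 7.36, 7.79 and 7.68 with RA, against 8.05, 7.81, 7.42 and 7.99 with DMSO, with full overlap. The Jagged genes jag1a (0.27 ± 0.18), jag1b (0.12 ± 0.20) and jag2b (0.29 ± 0.13) had adjusted p-values of 0.611, 0.883 and 0.355. For jag2b the level was 9.73, 9.19, 9.56 and 9.21 with RA, against 9.09, 9.19, 9.27 and 8.97 with DMSO; RA replicates 1 and 3 lay above the DMSO arrays and the other RA arrays among them. For jag1a it was 7.44, 7.27, 7.76 and 7.58 with RA, against 7.33, 7.21, 7.37 and 7.05 with DMSO, and 1 RA array lay within the DMSO range.

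No receptor gene passed with RA. With RA, notch1a had 9.48, 8.87, 9.33 and 8.48, against 9.24, 9.30, 9.33 and 9.29 with DMSO (-0.25 ± 0.19, 95% interval -0.65 to 0.15). RA replicates 2 and 4 lay below the DMSO arrays of notch1a, replicate 1 above them and replicate 3 level with the highest of them. For notch2 the level was 7.77, 8.06, 8.07 and 8.15 with RA, against 8.12, 8.27, 8.30 and 7.98 with DMSO. For notch3 it was 8.54, 8.22, 8.18 and 7.43 with RA, against 8.21, 8.50, 7.87 and 8.28 with DMSO, where RA replicate 4 was the lowest of all 16 arrays. For notch2 the difference was -0.16 ± 0.14 (95% interval -0.45 to 0.14) and for notch3 -0.12 ± 0.22 (-0.59 to 0.34), and the adjusted p-values of the 3 genes were 0.681 to 0.893. The notch1b probe set lay between 1.83 and 2.24 on all 16 arrays and was not tested.

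**Figure D2:**
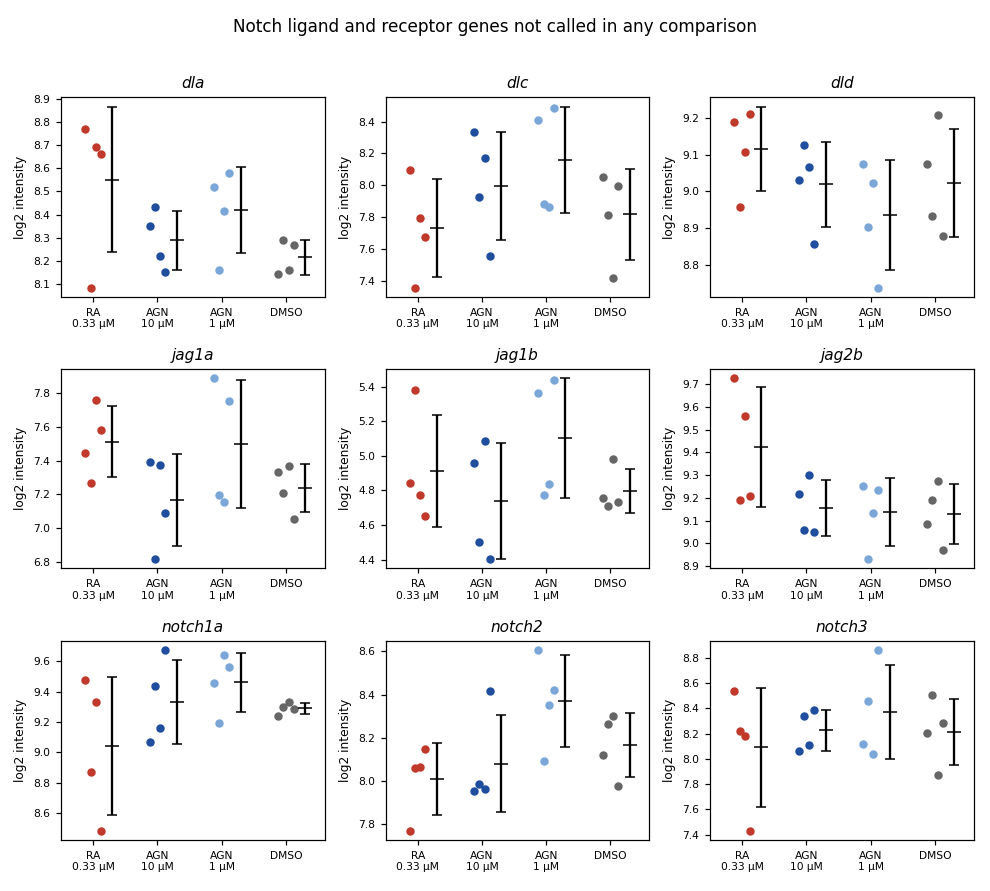
Log2 intensity of 6 ligand and 3 receptor genes that were not called in any comparison; each point is 1 array and the bar its group's mean with the SD (n = 4), with groups from RA to DMSO. Groups overlap in every panel. For dla, 3 RA arrays lie above all DMSO arrays and RA replicate 2 below them.

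Among processing genes, lfng was called and aph1b (Dr.4447.1.S1_at), which encodes a subunit of the γ-secretase that cleaves Notch, missed the threshold narrowly. Its level was 9.63, 9.58, 9.58 and 9.85 with RA, 8.67, 9.03, 8.75 and 9.12 at 10 µM antagonist, 8.69, 8.90, 8.83 and 8.82 at 1 µM antagonist, and 8.97, 9.04, 9.55 and 9.13 with DMSO. The RA arrays lay above all others, although DMSO replicate 3 came close. The difference from DMSO was 0.49 ± 0.14 (adjusted p = 0.0508), and it passed with the replicate number as a block (adjusted p = 0.0431) and without DMSO replicate 3 (0.61, adjusted p = 0.00687). Other γ-secretase subunits had negative values, -0.37 ± 0.17 for psen2 (adjusted p = 0.339) and -0.34 ± 0.23 for psenen (adjusted p = 0.634). For psen2 the level was 6.34, 6.72, 6.49 and 7.03 with RA, against 6.86, 6.97, 7.13 and 7.09 with DMSO, and only RA replicate 4 reached the DMSO arrays. For psenen it was 8.47, 9.32, 8.56 and 9.10 with RA, against 9.32, 9.18, 9.06 and 9.22 with DMSO, with RA replicates 1 and 3 the lowest. The metalloprotease genes adam10a (0.04 ± 0.16) and adam10b (0.01 ± 0.17) and the ubiquitin ligase gene mib1 (0.19 ± 0.31), needed for Delta to signal, had adjusted p-values of 0.873 to 0.995. The feedback inhibitor gene nrarpa had -0.09 ± 0.11 (95% interval -0.31 to 0.14) and nrarpb -0.51 ± 0.34 (-1.22 to 0.21). The level of nrarpb was 6.13, 5.76, 6.16 and 4.69 with RA, against 6.58, 6.58, 5.36 and 6.24 with DMSO, with 1 low array in each group.

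To see whether the same genes depend on receptor activity without added RA, each antagonist dose was compared with DMSO. At 10 µM, limma called 0 of the 31 Notch genes, where 0.397% of all probe sets were called, and 4 had an unadjusted p under 0.05 (12.9%, against 5.15% of all probe sets): dlb, her3, her4.2 and her4.5. At 1 µM it called 0 of 31, where 0.144% of all probe sets were called, and 2 had an unadjusted p under 0.05: aph1b and lfng. Those 2 are 6.45% of the genes, near the 6.28% of all probe sets. The median log2 fold change of the Notch genes was 0.010 at 10 µM and 0.048 at 1 µM, against 0.011 and 0.005 for all probe sets. The groups did not overlap for 3 of 31 genes at 10 µM (9.68%, against 5.45% of all probe sets) and for 2 of 31 at 1 µM (6.45%, against 2.1%).

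At 10 µM the her4 copies and dlb had the most negative values. For her4.5 the level was 6.93, 6.76, 6.89 and 6.82 at 10 µM and 7.17, 7.03, 7.27 and 7.03 at 1 µM, against 7.42, 7.05, 7.19 and 7.43 with DMSO. All arrays at 10 µM lay below those of both other groups (-0.42 ± 0.17 from DMSO, adjusted p = 0.780). For her4.2 the difference was -0.44 ± 0.20 (adjusted p = 0.915). The second her4.5 probe set, dimmer at a mean log2 level of 4.42, had 0.00 ± 0.15.

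The values of lfng were 11.37, 11.22, 11.24 and 11.32 at 10 µM and 11.57, 11.25, 11.52 and 11.58 at 1 µM, with differences from DMSO of 0.17 ± 0.12 and 0.36 ± 0.12 (adjusted p = 1.00 and 0.745). DMSO replicate 3 overlapped with both doses, and the other DMSO arrays lay below every antagonist array. The clock gene her7 had 8.48, 8.30, 8.59 and 7.99 at 10 µM and 7.92, 8.33, 8.48 and 7.81 at 1 µM (0.26 ± 0.20 and 0.05 ± 0.20, adjusted p = 1.00 and 0.972). For her15.2 the level was 8.70, 8.50, 8.65 and 8.76 at 10 µM and 7.97, 8.38, 8.75 and 7.87 at 1 µM (0.03 ± 0.21 and -0.38 ± 0.21). For her6 it was 9.47, 9.48, 9.54 and 9.46 at 10 µM and 9.14, 9.76, 9.61 and 9.21 at 1 µM (-0.25 ± 0.15 and -0.31 ± 0.15). Both genes overlapped with DMSO at each dose. The neighbour of her7, her1, had 0.29 ± 0.15 and 0.27 ± 0.15 (adjusted p = 0.973 and 0.745).

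**Figure D3:**
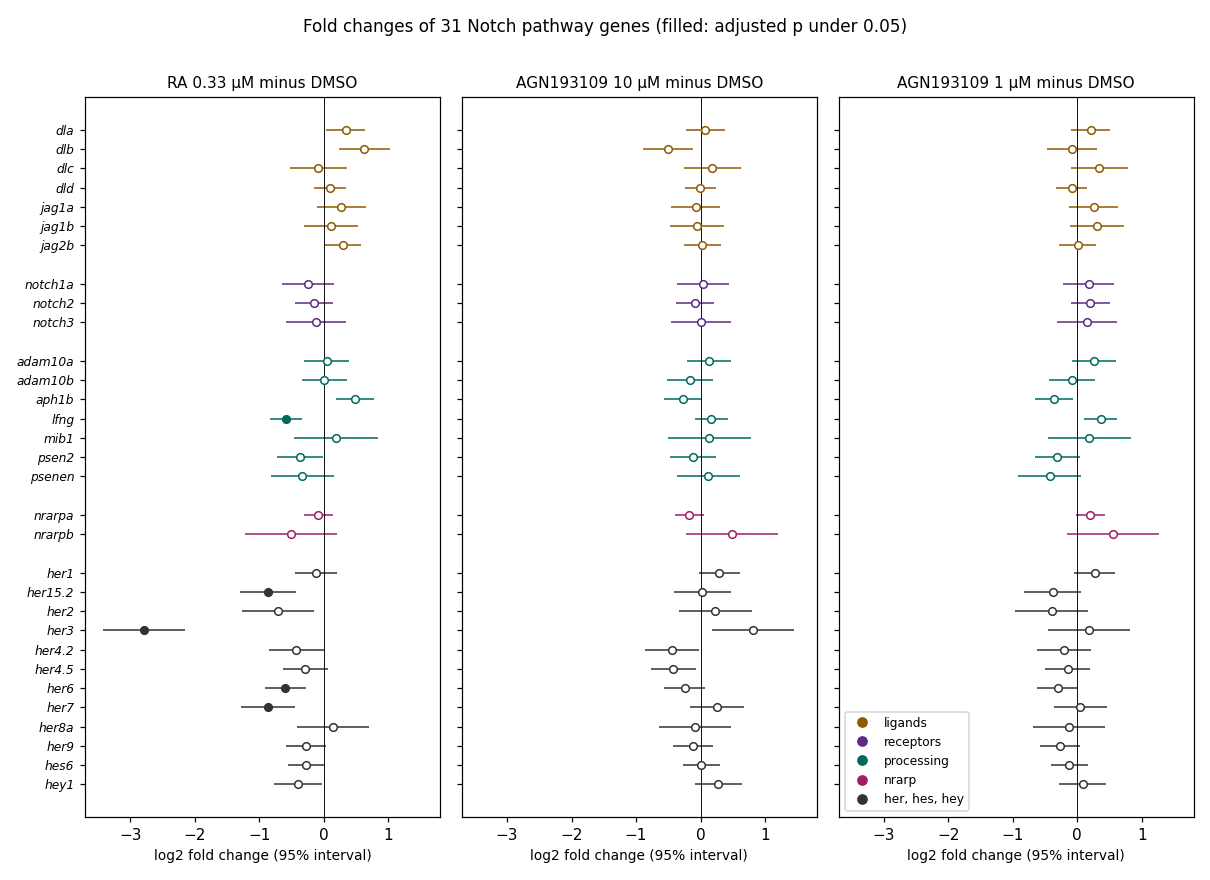
Log2 fold change against DMSO of the 31 tested Notch pathway genes, with 95% intervals of the model; panels show RA, antagonist at 10 µM and antagonist at 1 µM, colours the role of the gene, and filled points an adjusted p under 0.05. With RA the 5 filled points are lfng, her3, her6, her7 and her15.2, all below 0, and no point is filled for the antagonist.

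Between the antagonist doses, 10 µM against 1 µM, limma called 0 of the 31 Notch genes, where 1 of 11843 probe sets was called (0.00844%), and 4 had an unadjusted p under 0.05 (12.9%, against 8.92% of all probe sets). The clearest of them was nrarpa, with 11.72, 11.46, 11.60 and 11.58 at 10 µM, against 12.12, 11.89, 11.78 and 12.09 at 1 µM. These groups did not overlap, as for 2 of 31 genes in all (6.45%, against 4.96% of all probe sets), but the difference of -0.38 ± 0.11 (95% interval -0.61 to -0.15) had an adjusted p of 0.554. The other nrarpa probe sets gave -0.34, -0.15 and -0.24 between the doses, and their groups overlapped (adjusted p = 0.593, 0.828 and 0.844). For the genes called with RA, the intervals of the dose difference were -0.01 to 1.26 for her3, -0.21 to 0.62 for her7, -0.03 to 0.85 for her15.2, -0.26 to 0.38 for her6 and -0.44 to 0.06 for lfng. At 1 µM, replicates 1 and 4 were the lower arrays for her2, her3, her6, her7 and her15.2 and the higher ones for dlb. With both of these arrays left out, a choice made after seeing the data, still 0 members were called at 1 µM.

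RA was then set directly against the antagonist at 10 µM, a difference of means that uses no DMSO array. Its SE and p-values still rest on the spread of all 16 arrays, and the RA arrays are those compared with DMSO. Of the 31 Notch genes 2 were higher with RA and 6 lower, where 4.79% and 4.06% of all probe sets were called (8.85% in all, against 25.8% of the Notch genes). The higher genes were dlb (1.13 ± 0.19, adjusted p = 0.000377) and aph1b (0.77 ± 0.14, adjusted p = 0.00111). The lower genes were her3 (-3.60 ± 0.30, adjusted p = 1.47e-07), her7 (-1.12 ± 0.20, adjusted p = 0.000776), lfng (-0.75 ± 0.12, adjusted p = 0.000271), her15.2 (-0.89 ± 0.21, adjusted p = 0.00937), her2 and hey1. The gene her6 had -0.35 ± 0.15 with an adjusted p of 0.218. The groups did not overlap for 12 of 31 genes, or 38.7%, with 2 higher and 10 lower, against 13.8% of all probe sets (7.12% higher and 6.71% lower). The second dlb probe set, near background at a mean log2 level of 4.45, gave 0.57 ± 0.18 with an adjusted p of 0.0705.

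For her2 (Dr.1460.1.S1_at) the level was 6.85, 7.15, 6.41 and 7.57 with RA, against 7.69, 7.71, 8.33 and 7.98 at 10 µM antagonist (-0.93 ± 0.27, adjusted p = 0.0349). For hey1 (Dr.19915.1.S1_at) it was 6.32, 6.76, 6.14 and 6.55 with RA, against 7.10, 6.84, 7.20 and 7.33 (-0.67 ± 0.17, adjusted p = 0.0192). Neither pair of groups overlapped. These calls were also lost without some single arrays. For her2 the adjusted p was 0.0972 and 0.139 with RA array 1 or 3 left out, and 0.0509, 0.127 and 0.0797 with antagonist array 2, 3 or 4 left out; it was 0.0517 when the filter was dropped. For hey1 it was 0.0579 and 0.0778 with RA array 1 or 3 left out, and 0.0593 and 0.0644 with antagonist array 3 or 4 left out.

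Over all 4 groups, an F test called 6 of the 31 Notch genes, where 7.26% of all probe sets were called: her3 (adjusted p = 5.44e-07), lfng (0.000130), aph1b (0.00154), dlb (0.00343), her7 (0.00348) and her15.2 (0.0251). In all, 9 Notch genes were called by at least 1 of the tests and 22 by none. The share of all probe sets called by at least 1 of them was not counted, so the 9 have no share beside them. RA against 10 µM antagonist alone called 8.85% of all probe sets. Residual SDs within groups had a median of 0.254 for the Notch genes and 0.236 for all probe sets. For the probe sets used, the lowest were 0.116 for nrarpa, 0.133 for dld and 0.143 for lfng. The highest were 0.478 for her3, 0.490 for mib1 and 0.541 for nrarpb. The low spread of nrarpa did not extend to its other probe sets. Their SE of a difference between groups was 0.21, 0.21 and 0.37, against 0.11 for the one used. For nrarpb the other tested probe sets had an SE of 0.14 and 0.26, against 0.34 for the one used.

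Several probe sets existed for 11 of the 33 Notch genes. The 4 probe sets of nrarpa gave -0.09, -0.23, -0.32 and -0.38 with RA against DMSO, and none was called. The 3 of dlc gave -0.09, -0.02 and 0.11, also without a call. The probe sets used for dlc and notch1a, and those for her4.2 and her4.5, carry suffixes that Affymetrix gives where probes may also match other transcripts.

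Further genes tied to the pathway were taken from a list of 51, of which 18 were named on the array and 16 tested. None was called against DMSO at any exposure, with 3, 0 and 1 at an unadjusted p under 0.05 for RA, 10 µM and 1 µM antagonist. Between RA and 10 µM antagonist, 1 fell: tle3b, a Groucho corepressor gene whose protein family binds Her repressors (-0.53 ± 0.15, adjusted p = 0.0347). Its groups overlapped, and a count of 1 of 16 is no more than the 8.85% of all probe sets called in that comparison.

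Genes acting beside the pathway were also counted, in lists chosen with earlier results of these data known. The counts therefore describe these lists and are no test of them. Of 15 tested genes of segment formation, 5 were lower with RA than with DMSO and 1, fgf8a (0.55 ± 0.13), was higher, where 2.57% and 3.18% of all probe sets were. The lower ones were msgn1, tbx16, tbx16l, aldh1a2 and foxc1b, and msgn1, tbx16 and tbx16l were also counted above as mesoderm markers. At either antagonist dose limma called 0 (3 at 10 µM and 2 at 1 µM had an unadjusted p under 0.05). Of 14 tested proneural and early neuronal genes, 4 were higher with RA and 1 lower, and 1 was lower at each antagonist dose, where 0.397% and 0.144% of all probe sets were called at 10 µM and 1 µM. The higher ones were myt1a (1.71 ± 0.17), olig2 (1.11 ± 0.22), insm1b (1.09 ± 0.18) and ascl1b (0.64 ± 0.18), and sox2, which keeps neural progenitors undifferentiated, was lower (-0.95 ± 0.12). The proneural genes ascl1a (-0.93 ± 0.28, adjusted p = 0.0655) and neurod1 (-0.58 ± 0.21, adjusted p = 0.166) had negative values without a call against DMSO. The uncalled neurog1 and elavl3 had positive ones. With RA, ascl1a and neurod1 averaged 4.49 and 4.33, near the filter of log2 4. Between RA and 10 µM antagonist, 6 genes of this list were higher with RA and 2 lower, where 4.79% and 4.06% of all probe sets were. Among the lower was neurod1 (-0.87 ± 0.21, adjusted p = 0.014). These lists overlap, since sox2 is also a neural plate marker, and neurog1 and elavl3 are also early neuron markers.

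The proneural gene neurog1, which her3 represses, was the gene lower at both antagonist doses. Its level was 8.92, 9.02, 8.90 and 9.19 with RA, 6.66, 6.62, 6.86 and 6.99 at 10 µM antagonist, 6.32, 7.39, 7.15 and 6.79 at 1 µM antagonist, and 8.02, 8.93, 8.13 and 7.94 with DMSO. All antagonist arrays lay below all DMSO arrays, while DMSO replicate 2 reached the RA arrays. The differences from DMSO were 0.76 ± 0.22 with RA (adjusted p = 0.0610), -1.47 ± 0.22 at 10 µM (adjusted p = 0.00319) and -1.34 ± 0.22 at 1 µM (adjusted p = 0.0167). These comparisons share the DMSO arrays. The differences of her3 in the same comparisons were -2.79 ± 0.30, 0.81 ± 0.30 and 0.19 ± 0.30, and a relation between the 2 genes was not tested.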

How the data were processed

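Total RNA of 16 samples was labelled with biotin and hybridised to Affymetrix zebrafish arrays, per the labels' protocols. The deposited intensities are 1 linear value per probe set and array, made by the authors with GCRMA, per the submitters' processing notes, and range upward from 2. Its version and any later scaling step are not stated there. Log2 of these intensities was taken, 115 control probe sets were left out, and the 11843 probe sets above log2 4 on at least 4 of 16 arrays were tested.

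Group means were fitted to all 16 arrays with limma 3.58.1 in R 4.3.3 (12 residual and 4.45 prior degrees of freedom), and p-values were adjusted by Benjamini-Hochberg over all tested probe sets within a comparison. A call is an adjusted p under 0.05. Folds are differences of mean log2 intensity with the SE of the model. The procedure was tested on simulated data.

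Groups and replicate numbers come from the sample titles. Same-numbered RA and DMSO arrays deviated together from their group means (r of 0.134 to 0.336 in all 4 pairs). Some differently numbered pairs did so too, such as DMSO replicate 1 with RA replicate 3 (r of 0.237). Between other groups, same-numbered pairs went down to -0.455. Over all groups the median r was 0.177 for same-numbered pairs and -0.0888 for the others. For 9 of 16 arrays the closest array of another group had the same number. The replicate number was therefore also fitted as a block.

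Symbols come from the platform annotation (10802 probe sets with 1 symbol, 135 with several, 4680 with none), updated by Entrez number through the RefSeq table of GRCz12tu, which matched 10718 and changed none of the members. Gene neighbours are from that table. Members and gene lists were chosen with earlier results of these data known. Per-array values are given for members called in any test and for at most 4 uncalled members per role with the smallest F test p; a few others are given by difference. Scan dates and slides were not analysed here.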

Additional observations from a re-analysis of the deposited data

Results flagged for a closer look

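Within groups of 4 arrays, 4 single values stood far from their group's others by Dixon's ratio, among 108 groups of 27 genes; chance gives about 1 in 20 groups. In the RA arrays, dla was 8.08 in replicate 2, against 8.66 to 8.77 in the others. At 10 µM antagonist, notch2 was 8.42 in replicate 4, against 7.95 to 7.99. At 1 µM antagonist, adam10a was 7.46 in replicate 4, against 6.78 to 6.86. In the DMSO arrays, hey1 was 7.34 in replicate 2, against 6.63 to 6.71.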

How the results depend on the processing

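The 6 member calls with RA against DMSO (5 Notch genes and hesx1) and the 9 with RA against 10 µM antagonist became 8 and 9 after quantile normalization, 7 and 8 without the filter, 7 and 9 with a pseudocount of 16, and 7 and 9 with only the 2 groups fitted. With array weights they became 12, of which 4 higher and 8 lower, and 12, and the F test gave 12 in place of 7; the cause was not tested. With the replicate block they were 7 and 9 and the F test gave 8; the block added aph1b with RA and changed no other call between 2 groups among the described genes. The sample titles do not say what a shared replicate number stands for in any comparison. Leaving out 1 array gave 4 to 6, 7 to 10 and, for the F test, 6 to 8. For each antagonist dose against DMSO, and for 10 µM against 1 µM, every alternative gave 0, also with the range over single arrays at 0 to 0. With antagonist replicates 1 and 4 at 1 µM both left out, chosen after seeing the data, the F test gave 8. Over the 27 described genes, 0 of 2004 recomputed values reversed a call, 18 lost one and 18 gained one. Of the 6 and 9 calls, 4 and 7 held under every alternative and without any single array, apart from the second, dimmer dlb probe set. Both of these counts include hesx1, which is no Notch gene and whose probe set passed the filter through the groups other than RA. Over all probe sets, array weights raised the calls to 1194 in place of 681 for RA against DMSO, 255 in place of 47 for 10 µM antagonist against DMSO, 1946 in place of 1048 for RA against 10 µM antagonist and 1425 in place of 860 for the F test. The calls for 1 µM antagonist against DMSO were 17, and 7 with only those groups fitted, 9 without DMSO replicate 1 and 11 without DMSO replicate 2. For 10 µM antagonist against DMSO they were 29 without DMSO replicate 1 and 30 without antagonist replicate 1.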
